A study of Spirodela polyrhiza with 16 samples.

Results

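The 3 genes described are the copper transporter 1 homologs Sp06g01301 and Sp06g01303, which lie next to each other on chromosome 6, and Sp04g00048, a homolog of the copper chaperone CCH on chromosome 4, out of 20389 gene models in the table of giant duckweed (Spirodela polyrhiza). They were chosen by identifier after the phosphate comparison in fronds was known, in which both transporter homologs were far lower without phosphate. Their values in that comparison are therefore a description and carry no test. What chose the CCH homolog is not recorded, so its values are given throughout with no test. The table names genes by their closest Swiss-Prot homolog and not by a symbol of their own.

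Plants of clone 9509 were grown in 250 ml flasks holding 100 ml of N-Media, and on day 10 the medium was exchanged for fresh medium either complete (control) or lacking KH2PO4 (no phosphate). The harvest on day 11 divided the content of each flask into fronds, the leaf-like floating bodies, and roots, and each tissue was pooled within its flask to make 1 replicate. The 4 groups (frond control, frond no phosphate, root control, root no phosphate) hold 4 libraries each, sequenced from poly-A RNA as 150 bp paired-end reads. All share the clone and its first growth period, and the treated plants had been without added phosphate for 1 day.

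Copper transporters of the COPT (Ctr) family are small membrane proteins that bring reduced copper into the cytosol. Inside the cell, chaperones of the ATX1 type, to which CCH belongs, carry copper to P-type ATPases, which pump it into organelles or out of the cell. In Arabidopsis the transcription factor SPL7 raises transcripts of COPT genes and of CCH when copper is scarce, and COPT1 acts in uptake by roots. Whether SPL7 works this way in duckweed is outside these data.

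The libraries held between 6325297 and 12437151 recovered reads. Levels are in FPKM, reads divided by the length of the gene model and by library size. Each log2 change was taken between means of log2(FPKM + 1), which understates changes of low genes. The tissue labels were checked against 38 genes of green tissue (chlorophyll-binding proteins, photosystem subunits and the Rubisco small subunit), all of them above 0 in every library, whose summed level was 103409 to 126862 FPKM in the 8 frond libraries and 40508 to 67359 FPKM in the 8 root libraries. The root libraries are thus rich in transcripts of green tissue. The Rubisco small subunit model on that list, Sp15g00063, went against the label, at 24.9 FPKM in control fronds and 573 FPKM in control roots. So did a low photosystem II 22 kDa protein homolog, Sp04g00161, at 1.27 FPKM in control fronds and 2.74 FPKM in control roots. Without phosphate a chlorophyll a-b binding protein 7 homolog, Sp15g00149, did as well, at 103.7 FPKM in fronds and 117.9 FPKM in roots. Of 3 root markers, a Casparian strip membrane protein 1 homolog (Sp04g00111), a root endodermis gene, averaged 2.99 FPKM in control fronds and 51.8 FPKM in control roots. The other two, root hair defective 3 homologs, averaged 24.8 and 29.5 FPKM (Sp08g01001) and 0.98 and 1.17 FPKM (Sp09g00826), so the root label rests mainly on the former gene. Libraries are named by group and by their column number. In each tissue, control columns are numbered 1 to 4 and no-phosphate columns 5 to 8.

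The copper transporter 1 homologs were abundant in roots, lower in control fronds and lowest in fronds without phosphate. Sp06g01301 averaged 1351 ± 910 FPKM in control roots and 765 ± 753 FPKM in roots without phosphate (SD, n = 4), against 255 ± 131 FPKM in control fronds and 50.4 ± 24.2 FPKM in fronds without phosphate. Sp06g01303 followed the same order at a lower level, with 713 ± 644, 289 ± 386, 85.7 ± 59.8 and 8.59 ± 5.91 FPKM in these 4 groups. By mean level Sp06g01301 ranked 65th of 20389 genes in control roots and 611th in control fronds. Sp06g01303 ranked 152nd in control roots, and its rank in fronds went from 1878 in control medium to 10373 without phosphate.

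In the fronds Sp06g01301 stood at 257, 437, 134 and 194 FPKM in control libraries 1 to 4, and at 29.3, 33.6, 56.7 and 81.8 FPKM in no-phosphate libraries 5 to 8. Every control library lay above every library without phosphate, with control library 2 the highest and no-phosphate library 5 the lowest. The mean was 5.07-fold higher in control fronds, and the log2 change was -2.30 ± 0.61 (SE). Sp06g01303 stood at 90.8, 168, 35.6 and 48.2 FPKM in control fronds and at 2.56, 8.22, 6.89 and 16.7 FPKM in fronds without phosphate. These groups did not overlap either, control library 2 was again the highest, and the mean was 9.97-fold higher in control fronds (log2 change -3.14 ± 0.82). The lowest of these values, in no-phosphate library 5, rests on 6 reads. Of the 16598 genes tested, 9.46% were lower in fronds without phosphate with no overlap between the groups and 2.3% were called lower by limma. Since the frond comparison chose the transporters, nothing is read from this.

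In the roots the same question had no clear answer, because libraries of 1 group differed many-fold. Sp06g01301 stood at 538, 1745, 2449 and 673 FPKM in control roots and at 1858, 231, 306 and 665 FPKM in roots without phosphate. Control libraries 2 and 3 and no-phosphate library 5 were high, the other 5 root libraries were low, and the groups overlapped. Sp06g01303 showed the same split, with 187, 906, 1541 and 219 FPKM in control roots and 865, 52.9, 94.9 and 145 FPKM in roots without phosphate. The means were 1.77-fold (Sp06g01301) and 2.46-fold (Sp06g01303) higher in control roots, the same direction as in fronds. By limma over all genes neither difference passed: the log2 change was -1.03 ± 0.61 for Sp06g01301 (adjusted p = 0.411) and -1.62 ± 0.82 for Sp06g01303 (adjusted p = 0.339), where 0.422% of genes tested were called. Leaving out no-phosphate library 5 took them to -1.63 and -2.43, leaving out control library 3 to -0.66 and -1.07, and leaving out no-phosphate library 6 took Sp06g01301 to -0.62, with neither gene called in any of the 16 leave-outs. The difference between the root and the frond change was 1.27 ± 0.86 for Sp06g01301 and 1.53 ± 1.16 for Sp06g01303, a value that contains the frond comparison and so has no test here.

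**Figure D1:**
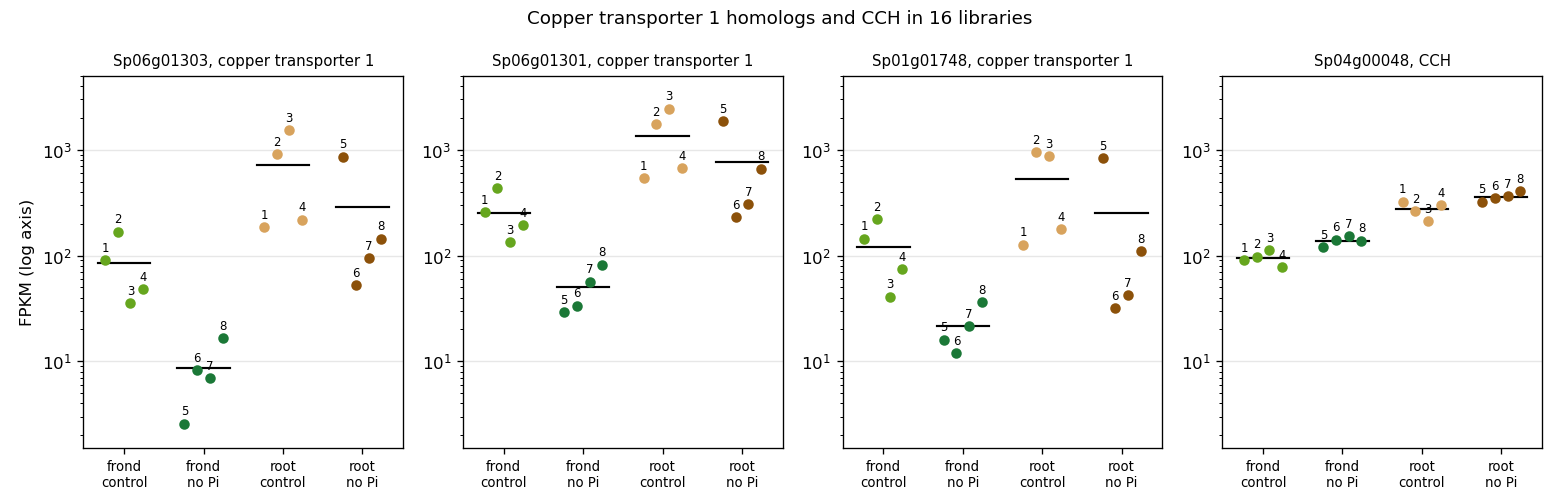
Level in FPKM (log axis) of Sp06g01303, Sp06g01301, the chromosome 1 homolog Sp01g01748 and the CCH homolog Sp04g00048 in each of the 16 libraries. Points are libraries marked with their column number and bars are group means. The transporter homologs spread widely within groups, with root control 2 and 3 and root no phosphate 5 on top, while the CCH libraries lie close to their means.

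Both transporter homologs were higher in roots than in fronds. Averaged over both media, a comparison independent of the one that chose them, the root minus frond log2 difference was 2.89 ± 0.43 for Sp06g01301 (limma, adjusted p = 1.48e-05) and 3.52 ± 0.58 for Sp06g01303 (adjusted p = 4.388e-05), in a contrast where 36.3% of genes tested were called higher in roots. In control medium the root mean was 5.29-fold the frond mean for Sp06g01301 and 8.32-fold for Sp06g01303. Without phosphate the ratios were 15.2 and 33.7, which share the frond libraries that chose the genes. The 8 root and 8 frond libraries still overlapped: root no-phosphate library 6 held 52.9 FPKM of Sp06g01303 and frond control library 2 held 168. In bulk tissue, fewer cells of a type and less RNA per cell cannot be told apart.

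Placed in order, each homolog ran from root control through root no phosphate and frond control to frond no phosphate. Of the neighbours in that order, root control and root no phosphate overlapped, as did root no phosphate and frond control. Frond control and frond no phosphate were the neighbours without overlap. That is the comparison that chose the transporters, so nothing is read from it.

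The 3 root libraries that were highest in both transporters, control 2 and 3 and no phosphate 5, were also the 3 root libraries highest in the summed green-tissue markers, at 55782, 67359 and 57815 FPKM against 40508 to 52094 FPKM in the other 5. No frond library exceeded 437 FPKM of Sp06g01301 or 168 FPKM of Sp06g01303, which is below all 3 of these root libraries. Within fronds, the markers summed to 114649 to 126862 FPKM in control libraries and 103409 to 116372 FPKM without phosphate. The part of these marker differences in the transporter values was not tested.

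The pair sits on the minus strand of chromosome 6, Sp06g01301 from 8166532 to 8166969 and Sp06g01303 from 8168113 to 8168508, in coordinates of the authors' table, whose genome build is not given in the sources used here. Each model is as long as its span, 438 and 396 bases, so neither is annotated with an intron, and 1143 bases lie between them. A model on the opposite strand, Sp06g01302, lies in that gap, and it and the outer neighbours Sp06g01300 and Sp06g01304 averaged at most 0.78 FPKM in any group. The next expressed model, Sp06g01305, a homolog of mitochondrial uncoupling protein 1, averaged 12.2 and 11.99 FPKM in fronds and 23.3 and 22.7 FPKM in roots with and without phosphate. Its log2 changes without phosphate were -0.03 ± 0.11 in fronds and -0.02 ± 0.11 in roots. Close copies can share reads, and how the authors' counting treated such reads or strand is not stated, so the split between Sp06g01301 and Sp06g01303 is uncertain. With the reads of both models summed, the log2 change was -2.44 in fronds, -1.18 in roots (limma, adjusted p = 0.384) and 3.02 between tissues (adjusted p = 2.036e-05).

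Sp06g01303 was the minor copy in every library. Its share of the pair's summed FPKM was 26.1%, 27.8%, 21.0% and 19.9% in control fronds and 8.03%, 19.7%, 10.8% and 16.9% in fronds without phosphate. The frond groups did not overlap, but only narrowly, and the mean share was 23.7% ± 3.84 and 13.9% ± 5.36 (SD, n = 4). Both genes were chosen by the frond comparison, so this is a description. The smallest share rests on 6 of 82 reads, 7.32% of reads with a 95% Clopper-Pearson interval of 2.73% to 15.3%, which covers counting error only. The same intervals of control library 4 (15.5% to 21.4% of reads) and no-phosphate library 6 (12.1% to 25.6%) overlapped. In control roots the share was 25.8%, 34.2%, 38.6% and 24.5%, and in roots without phosphate it was 31.8%, 18.6%, 23.7% and 17.9%. The root groups overlapped, with means of 30.8% ± 6.75 and 23.0% ± 6.40, and the difference of -7.78 percentage points gave an exact two-sided permutation p = 0.143, where 0.0286 is the smallest that 4 against 4 libraries allow. The 3 root libraries with the most Sp06g01301, control 2 and 3 and no phosphate 5, also held the 3 largest shares of Sp06g01303.

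**Figure D2:**
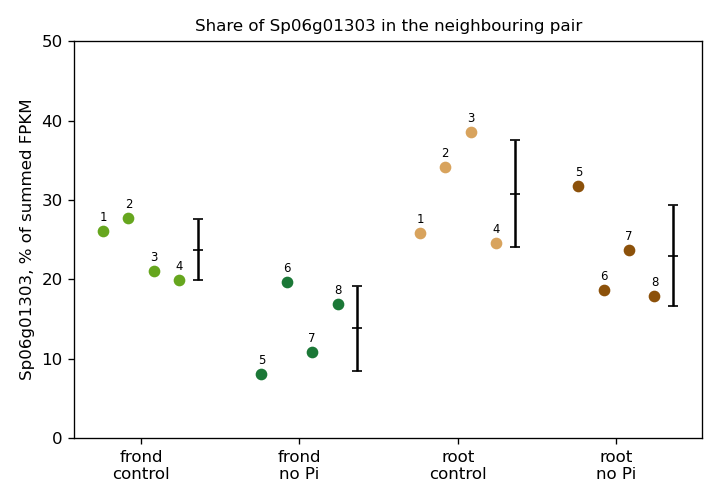
Share of Sp06g01303, in percent of the summed FPKM of Sp06g01301 and Sp06g01303, in each library. Points are libraries with their column number, and bars are the group mean ± SD (n = 4). All values lie under 40%, the lowest being frond no phosphate 5 at 8.03%.

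The spread of the transporters within groups was large for this experiment and was shared by both copies. The highest library of a group exceeded the lowest by 2.79-fold to 8.05-fold for Sp06g01301 and by 4.73-fold to 16.4-fold for Sp06g01303, both widest in roots without phosphate. The residual SD on the log2 scale was 0.986 for Sp06g01301 and 1.33 for Sp06g01303, against a median of 0.254 over all genes tested, and 99.64% and 99.9% of genes had a smaller one. In control fronds both ordered the libraries 2, 1, 4, 3, in control roots 3, 2, 4, 1 and in roots without phosphate 5, 8, 7, 6. In fronds without phosphate library 8 was highest and library 5 lowest in both. The Pearson correlation of the copies over the 16 libraries was 0.990, and 0.966 for the deviations from the group means. This is a description: the values share libraries, depth and possibly reads.

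Another copper transporter 1 homolog, Sp01g01748 on chromosome 1, showed the same pattern, but read sharing with the pair could not be examined. It stood at 145, 220, 40.8 and 74.8 FPKM in control fronds and 15.98, 11.96, 21.5 and 36.5 FPKM in fronds without phosphate, groups that did not overlap. In control roots it stood at 127, 954, 872 and 178 FPKM, and in roots without phosphate at 834, 31.8, 42.0 and 110 FPKM. The high root libraries were again control 2 and 3 and no phosphate 5. Its correlation with Sp06g01301 was 0.941 over the 16 libraries and 0.971 for deviations from the group means, and with Sp06g01303 it was 0.947 and 0.940. By limma, averaged over both media, it was called higher in roots (log2 difference 2.13 ± 0.63, adjusted p = 0.00608). In control medium alone the difference was 1.89 ± 0.89 and was not called (limma adjusted p = 0.0782). Without phosphate it was 2.37 ± 0.89 (limma adjusted p = 0.0271). Root control library 1 lay below frond control libraries 1 and 2. The phosphate changes of Sp01g01748 were -2.27 ± 0.89 in fronds (limma adjusted p = 0.155) and -1.80 ± 0.89 in roots (adjusted p = 0.330) and passed in neither tissue. Without root no-phosphate library 5 the root change was -2.78 and passed (limma adjusted p = 0.0398). That was the only 1 of 16 leave-outs that passed, with adjusted p up to 0.590. Over all genes it called 791 in roots, against 70 with every library.

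**Figure D3:**
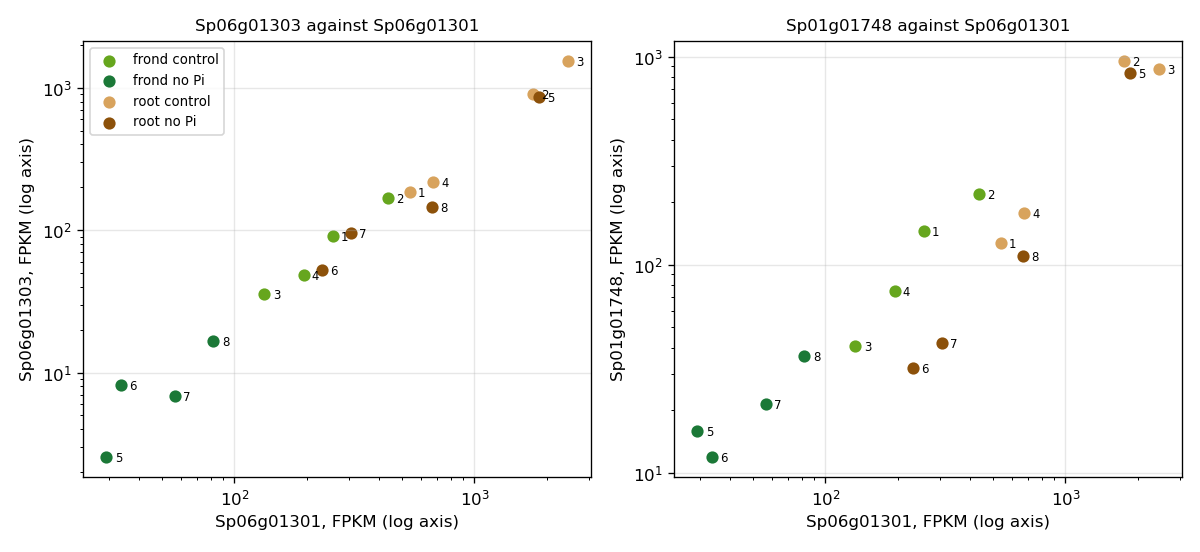
Level of Sp06g01303 (left) and of Sp01g01748 (right) against that of Sp06g01301, in FPKM on log axes, 1 point per library coloured by group and marked with its column number. Root control 2, root control 3 and root no phosphate 5 lie together at the top right of both panels, and the 4 frond no-phosphate libraries at the bottom left.

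The CCH homolog Sp04g00048 behaved differently from the transporters, with small spread and somewhat higher levels without phosphate. It stood at 91.2, 97.7, 112 and 77.5 FPKM in control fronds and 120, 141, 152 and 138 FPKM in fronds without phosphate. In control roots it stood at 323, 261, 213 and 302 FPKM, and in roots without phosphate at 323, 350, 363 and 404 FPKM. Libraries without phosphate lay above control libraries in each tissue, narrowly so in roots, where the highest control library held 322.8 FPKM and the lowest library without phosphate 323.1 FPKM. Over all genes tested, 9.65% were higher without overlap in fronds, 3.45% in roots and 1.22% in both.

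The CCH means were 94.6 ± 14.3 and 138 ± 13.4 FPKM in fronds and 275 ± 48.5 and 360 ± 33.7 FPKM in roots (SD, n = 4), in the order control and no phosphate. The mean without phosphate was 1.46-fold the control mean in fronds and 1.31-fold in roots, and the log2 changes were 0.55 ± 0.14 and 0.40 ± 0.14. The root minus frond log2 difference was 1.45 ± 0.10 averaged over both media, every root library lay above every frond library as for 18.9% of genes, and the difference of the phosphate changes was -0.15 ± 0.20. Ordered by level the groups ran frond control, frond no phosphate, root control, root no phosphate, and no neighbours in that order overlapped. The highest library of a group exceeded the lowest by at most 1.52-fold, and the residual SD of 0.197 was larger than that of 31.99% of genes. Rescaling every library to the same FPKM sum moved the tissue difference to 1.73, while the median gene moved by 0.25.

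The CCH model spans 236466 to 238424 on the minus strand of chromosome 4 with a coding length of 393 bases, so its span of 1959 bases includes sequence outside the counted exons. The model before it, Sp04g00047, a homolog of histidine-containing phosphotransfer protein 2, averaged 40.4 and 49.7 FPKM in control and no-phosphate fronds and 64.4 and 79.8 FPKM in the roots. The model after it, Sp04g00049, which has a root cap domain, averaged 4.08 and 4.27 FPKM in fronds and at most 0.233 FPKM in roots. Farther out, Sp04g00046, before Sp04g00047, averaged 45.3 and 65.2 FPKM in fronds and 67.2 and 90.4 FPKM in roots. Its log2 changes, 0.50 ± 0.17 in fronds and 0.42 ± 0.17 in roots, were near those of CCH, but its groups overlapped in each tissue. On the other side Sp04g00050 changed by 0.38 ± 0.15 in fronds and -0.21 ± 0.15 in roots. Over the 16 libraries CCH correlated with Sp06g01301 at 0.525 and with Sp06g01303 at 0.469. For deviations from the group means the correlations were -0.393 and -0.409. These negative values rest on 16 libraries and were not tested.

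The genes most like each copper gene were taken as the 5 annotated genes with the highest Pearson correlation of log2(FPKM + 1) over the 16 libraries, which share tissue, medium and depth. For Sp06g01303 the list was led by Sp06g01301, then a BTB/POZ domain protein (Sp03g00296, r = 0.961), a protein with domain DUF1644 (Sp11g00913, 0.951), an alanine-glyoxylate aminotransferase homolog (Sp01g01360, 0.9496) and a cysteine proteinase 1 homolog (Sp02g01074, 0.948). Sp06g01301 had Sp11g00913 and Sp02g01074 (both 0.965), Sp01g01360 and an IQ-DOMAIN 10 homolog (Sp05g00325, both 0.957) after Sp06g01303. For deviations from the group means these others fell to between 0.779 and 0.873, below the 0.940 and 0.971 of Sp01g01748. For CCH the list held a haloacid dehalogenase-like hydrolase Sgpp homolog (Sp20g00503, 0.985), a CHCH-domain protein (Sp07g00336, 0.982), Sp16g00454 (0.981), a gallate glucosyltransferase homolog (Sp12g00220, 0.980) and succinate dehydrogenase assembly factor 2 (Sp04g00736, 0.979). None of the CCH list was shared with the transporters' lists.

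The other genes of copper transport were set beside the pair. Of 13 listed models, 12 were tested, and all 12 differed between tissues by limma, 7 higher and 5 lower in roots. Of all genes tested 74.7% were called in that contrast, 36.3% higher and 38.4% lower. Besides the copper transporter 1 homologs above, those higher in roots were copper transporter 5.1 (Sp07g00836, 0.89 ± 0.10), the copper efflux ATPase homolog HMA5 (Sp13g00821, 2.06 ± 0.17) and the neighbouring models Sp12g00525 and Sp12g00526 of the copper ATPase HMA4. Those lower in roots were the chloroplast copper ATPase homologs PAA1 (Sp18g00532, -0.94 ± 0.08) and PAA2 (3 adjoining models, -1.25 to -0.95), and Sp01g01747, a low copper transporter 1 homolog beside Sp01g01748 (-2.26 ± 0.13). So of the 4 copper transporter 1 homologs, 3 were higher in roots and 1 in fronds.

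Of the 10 tested copper transport genes other than the pair, 0 were called for phosphate in fronds by limma and 0 by limma voom on recovered reads. Over all genes tested limma called 4.41% in fronds. In fronds 2 of the 10 had an unadjusted p under 0.05, beside 20.7% of all genes. In roots 1 was called, the HMA4 homolog Sp12g00525, at 30.0 ± 4.91 FPKM in control roots and 52.4 ± 12.4 FPKM without phosphate (0.77 ± 0.16, limma adjusted p = 0.0465). The groups overlapped, and the call was lost in 13 of 16 leave-outs, with adjusted p from 0.00164 to 0.170. The adjoining HMA4 model Sp12g00526 averaged 25.3 ± 6.41 and 47.4 ± 13.4 FPKM in roots (0.87 ± 0.20, limma adjusted p = 0.0576) and was not called. By limma 0.422% of all genes tested were called in roots. Voom called 2 of the 10 in roots, and its own count over all genes is given in the last section. In roots 3 of the 10 had an unadjusted p under 0.05, beside 16.3% of all genes. HMA5 averaged 68.7 ± 15.6 and 46.7 ± 21.5 FPKM in roots (-0.61, adjusted p = 0.220) and did not pass. The median change over the 10 was 0.12 in fronds and 0.03 in roots, beside 0.01 and -0.01 over all genes.

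**Figure D4:**
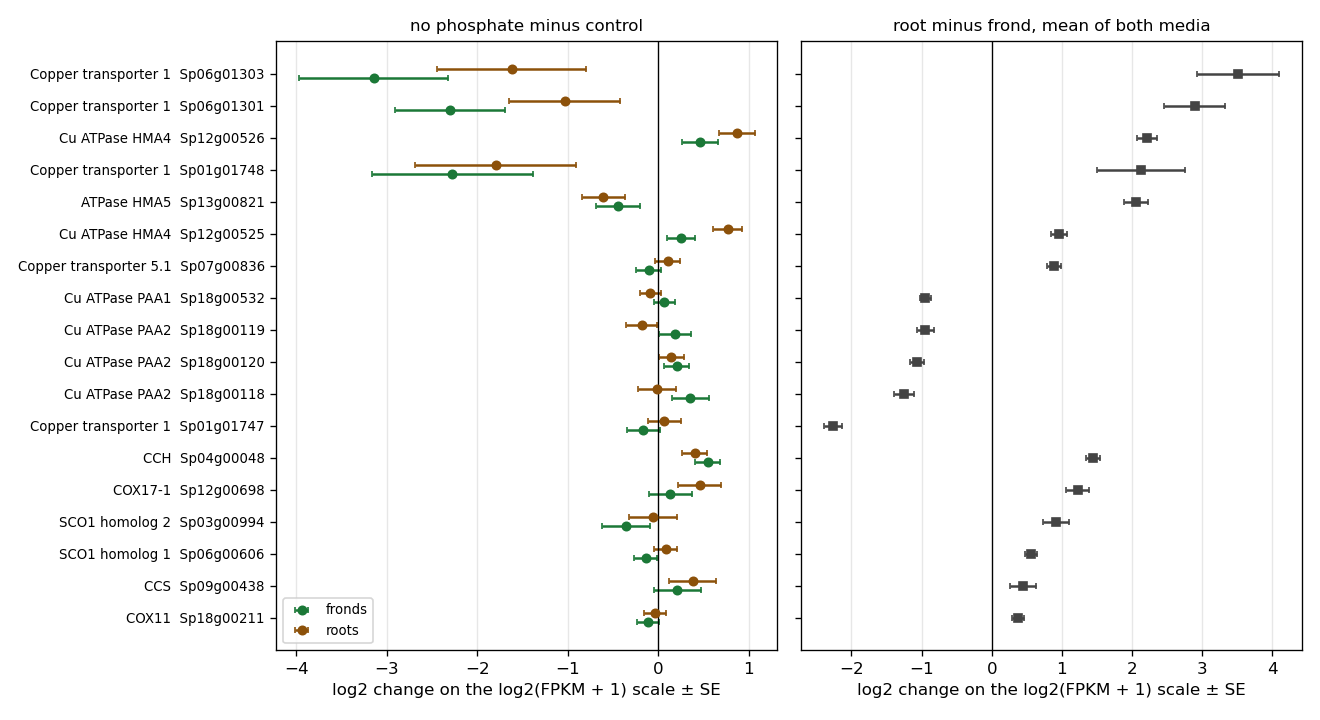
Log2 change ± SE of the tested copper transport genes and copper chaperones, without phosphate minus control in fronds and roots (left) and root minus frond averaged over both media (right). The 3 copper transporter 1 homologs Sp06g01303, Sp06g01301 and Sp01g01748 lie farthest to the left for phosphate, with the widest errors, and CCH leads the chaperones between tissues at 1.45.

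Of the 6 copper chaperone homologs, all had higher levels in roots, and CCH had the highest level and the largest tissue difference. The mitochondrial copper carrier COX17 (Sp12g00698) followed at 23.1 FPKM in control fronds and 48.7 FPKM in control roots (1.23 ± 0.17). The cytochrome oxidase assembly homologs COX11 (Sp18g00211), SCO1-1 (Sp06g00606) and SCO1-2 (Sp03g00994) differed by 0.38 to 0.92, and the chaperone of superoxide dismutase (Sp09g00438) by 0.45 ± 0.19, all called by limma. Of all genes tested, 36.3% were called higher in roots. For phosphate, 0 of these 5 other chaperones were called by limma or by voom in either tissue. By limma 4.41% of all genes tested were called in fronds and 0.422% in roots. Of the 5, 0 had an unadjusted p under 0.05, beside 20.7% of all genes in fronds and 16.3% in roots. Their median change was -0.12 in fronds and 0.08 in roots.

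Of 2 homologs of SPL7, the factor that raises COPT and CCH transcripts in Arabidopsis under low copper, the more abundant was called lower in fronds without phosphate. This model, Sp01g00845, averaged 62.7 ± 7.13 FPKM in control fronds and 41.7 ± 6.05 FPKM without phosphate (-0.58 ± 0.14, limma adjusted p = 0.0303), a call lost in 6 of 16 leave-outs with p up to 0.0858. In roots it averaged 105 ± 13.9 and 91.9 ± 15.2 FPKM (-0.19 ± 0.14, adjusted p = 0.511), and it was higher in roots by 0.92 (adjusted p = 3.4e-07). The other, Sp13g00161, averaged 3.39 FPKM in control fronds and 3.11 FPKM without phosphate (-0.04 ± 0.22, limma adjusted p = 0.937) and was lower in roots by a log2 difference of -1.82 (adjusted p = 2.051e-08). Of the 20 genes in the list of low-copper response genes, Sp01g00845 was 1 of 2 called in fronds, where 4.41% of all genes tested were called. The second was the iron transporter homolog Sp17g00168 (Fe(2+) transport protein 2), from 41.4 to 91.7 FPKM (1.14 ± 0.14, adjusted p = 0.0022). None was called in roots by limma or by voom, with 2 at an unadjusted p under 0.05, where 16.3% of all genes had one. The list is known from other plants, includes iron and zinc genes, and its median change was -0.18 in fronds.

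Of 44 tested genes of copper-binding proteins, 1 was called for phosphate in fronds (2.27%, beside 4.41% of all genes). It was an aureusidin synthase homolog of the polyphenol oxidase family (Sp05g00630), from 91.5 ± 14.3 to 215 ± 61.7 FPKM (1.19 ± 0.18, limma adjusted p = 0.00432). In fronds 10 of the 44 had an unadjusted p under 0.05, beside 20.7% of all genes. None was called in roots by limma or voom, where limma called 0.422% of all genes. There 11 of the 44 had an unadjusted p under 0.05, beside 16.3% of all genes. The most abundant, plastocyanin A (Sp09g00335), which carries electrons in photosynthesis, averaged 8758 and 11037 FPKM in fronds and was not called for phosphate. Of 31 tested genes with a heavy-metal-associated domain, the fold that binds copper in CCH, a homolog of HIPP2 (Sp06g00743) fell in fronds from 5.97 ± 1.70 to 2.41 ± 0.724 FPKM (-1.02 ± 0.25, limma adjusted p = 0.0316), a call lost in 6 of 16 leave-outs and with voom (adjusted p = 0.218). With a pseudocount of 5 its change was -0.56 and did not pass (limma adjusted p = 0.108). Over all copper lists without the 3 genes, 4 of 103 tested were called in fronds (3.88%, beside 4.41% of all genes) and 1 in roots.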

How the data were processed

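Poly-A RNA of 16 libraries (4 groups of 4) was measured by RNA-seq. Each flask was divided into fronds and roots, so a frond and a root library can share a flask. The main fit did not model this. The authors' deposited table holds FPKM per gene; HISAT2 2.0.5 and featureCounts 1.5.0-p3 were used, per the submitters' processing notes, and the genome build, annotation version and handling of shared reads are not given in the sources read. FPKM steps gave whole reads for 100% of values (tolerance 0.001), with 6325297 to 12437151 reads per library; the library size the steps imply was 0.886 to 1.14 of that sum, a scaling whose origin is not stated. Columns name tissue and medium by group, so their numbers were used as names only. Genes averaging 0.5 FPKM or more (16598 of 20389) entered 1 limma model (3.58.1, R 4.3.3) of every library on log2(FPKM + 1), trended and robust, Benjamini-Hochberg adjusted over all genes and called under 0.05. The script was tested on simulated data. Replicates within a group are flasks harvested from 1 experiment. The members and lists were chosen with earlier results of these data known. Named genes were the 3 members, the models beside them, the 5 most correlated annotated genes each, and in each copper list, matched by keyword, up to 4 called genes per contrast and up to 3 of highest mean; Sp01g01748 belongs to the copper transport list. Alternatives changed the pseudocount, filter, scaling, fit, prior, weights, libraries and replicate block. Limma voom on recovered reads was added after seeing the data. Count models planned for a count table were not used because the table holds FPKM. No sequences are shown, as no genome or protein table was used here.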

Additional observations from a re-analysis of the deposited data

Results flagged for a closer look

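In roots without phosphate, library 5 stood far above the other 3 libraries for 3 copper transport genes. Sp06g01303 was at 865 FPKM in it and at 52.9, 94.9 and 145 FPKM in the others. Sp01g01748 was at 834 FPKM in it and at 31.8, 42.0 and 110 FPKM in the others. The HMA5 homolog Sp13g00821 was at 78.8 FPKM in it, against 32.6 FPKM in the lowest library and a group median of 37.8 FPKM. These 3 were found among 48 groups of 4 libraries looked at. The groups were the levels of 11 genes named with tests or as members, and the share of Sp06g01303, in 4 groups each. A rate by chance of about 1 in 20 holds for independent, normally distributed values. Levels were compared in FPKM without logarithms and the 3 flags come from 1 library, so that rate does not apply to them. Sp06g01301 was also highest in that library, at 1858 FPKM.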

How the results depend on the processing

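The frond, root and tissue changes of the 3 genes and of Sp01g01748 kept their direction under all alternatives run, and the transporters' tissue difference stayed called in each (log2 2.60 to 3.79). Leaving out 1 library moved the frond change of Sp06g01303 from -3.51 to -2.74, its root change from -2.43 to -1.07 (adjusted p 0.0671 to 0.627), its tissue difference from 3.11 to 3.78 and the difference of its phosphate changes from 0.71 to 2.08. For Sp06g01301 these were -2.57 to -2.00, -1.63 to -0.62 (p 0.0946 to 0.693), 2.60 to 3.10 and 0.68 to 1.68. For CCH they were 0.46 to 0.63, 0.29 to 0.49, 1.41 to 1.51 and -0.26 to -0.05, and equal FPKM sums gave a tissue difference of 1.73. The root difference in the share of Sp06g01303 ran from -10.7 (without root no phosphate 5) to -5.17 points (without root control 3). Sp01g01748 passed in fronds with each tissue fitted alone (limma adjusted p = 0.0178) and with array weights (adjusted p = 0.0415). The planned count models were not run on FPKM. The counts of calls depended on the setting, and the cause was not tested. Over all genes 732 were called in fronds, 1772 with each tissue alone, 1991 with array weights, and 153 (without frond no phosphate 5) to 971 (without root no phosphate 6) in leave-outs. In roots 70 were called, 113 with pseudocount 5, 25 with equal sums, 0 with roots alone, 40 with neither trend nor robust prior, 508 with array weights, 139 with voom, and 0 (without root no phosphate 7 or 8) to 791 (without 5) in leave-outs. Between tissues 12110 to 12425 were called in leave-outs. Of the copper lists without the 3 genes, 4 were called in fronds, 16 with each tissue alone, 16 with array weights, and 2 to 6 in leave-outs. In roots 1 was called, 3 with pseudocount 5, 5 with array weights, 2 with voom, and 0 with no filter, equal sums, trimmed means, roots alone or neither trend nor robust prior, and 0 to 8 in leave-outs. Between tissues 89 to 93 were called in leave-outs. With the replicate block, the column number shared by fronds and roots, 728 genes were called in fronds and 72 in roots, with 4, 1 and 91 copper genes in fronds, roots and between tissues, and the tissue difference of Sp06g01303 gave a limma adjusted p = 4.108e-05. Same-numbered columns deviated together with r from -0.116 to 0.147, 2 of 8 pairs over 0.1. Among the libraries, 3 frond and 2 root libraries correlated best with their own number. Such weak correlations cannot decide whether same-numbered columns came from the same flask. The reported tissue difference treats frond and root libraries as unpaired. Depth limits Sp06g01303 most in fronds without phosphate, at 6 to 56 reads.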
